A study of Homo sapiens with 8 samples.

Results

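Transcript levels of 9 genes of amyloid precursor protein processing and of amyloid-beta clearance were read in 8 RNA-sequencing libraries of hCMEC/D3 cells. The genes were chosen by symbol from the 23346 listed in the deposited table, with earlier results of these data known, and all 9 were found. They are APP, BACE1, PSEN2, NCSTN, IDE, MME, AGER, CLU and PICALM. hCMEC/D3 cells derive from the endothelium of human brain microvessels, were immortalised with telomerase and SV40 large T antigen, and are grown as a model of the blood-brain barrier. All 8 libraries were replicates of this cell line with no treatment named in the labels, so the data hold 1 group and no comparison of conditions. As a model the group is a single immortalised line, without the neurons, astrocytes and pericytes that surround brain capillaries in tissue. The labels do not say whether the replicates came from separate cultures, so p-values here measure the spread between these libraries, which may be technical.

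Amyloid precursor protein is a membrane protein that is cut along alternative routes. Alpha-secretases cut within the amyloid-beta sequence, whereas beta-secretase, encoded by BACE1, cuts at its start and leaves a membrane stub that gamma-secretase cuts to release amyloid-beta. Gamma-secretase is a membrane complex of a catalytic presenilin, such as PSEN2, with nicastrin (NCSTN), an APH1 protein and PSENEN. The peptide is degraded by peptidases such as insulin-degrading enzyme (IDE) and neprilysin (MME), bound by the secreted chaperone clusterin (CLU), and carried across brain endothelium by receptors. RAGE, encoded by AGER, is known for carrying it from blood towards brain. PICALM, a clathrin assembly protein, takes part in the endocytosis that moves it the other way.

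Total counts ranged from 69388544 to 90205244 per library. Because every deposited count was an even number, counting intervals were computed on halved counts, called read pairs. Levels are given as CPM, the counts per 1e+06 of a library size scaled by the trimmed mean of M-values (TMM). Levels of different genes are compared as RPKM, which is CPM per kilobase of the canonical transcript. A gene was called detected where it had at least 1 CPM in every library. All 10 endothelial markers examined were detected, with a summed level of 2316 to 4486 CPM. Markers of other cells were lower in sum. They reached 33.7 to 87.6 CPM for 6 neuron markers, of which MAP2 and SYT1 were detected, and 22.6 to 36.5 CPM for 6 mural cell markers, of which 3 were detected. The 5 epithelial markers (1 detected) summed to 4.09 to 5.30 CPM, and 0 of 5 astrocyte and 0 of 5 microglia markers were detected, with sums of 0.820 to 1.17 CPM and 0.213 to 1.32 CPM. STMN2, AQP4 and P2RY12, defining markers of neurons, astrocytes and microglia, had 0 counts in every library, which allows up to 0.0665 to 0.0880 CPM (3 read pairs per library).

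RefSeq promoters, from 250 bases before to 50 bases after a transcript start, were matched by sequence to the start of the canonical transcript for 8 of the 9 genes, all but CLU. They were searched on both strands for the GC box (GGGCGG), the TATA box (TATAAA) and the CCAAT box (CCAAT). The GC box was present in 44.9% of all 34796 promoters of this length, the TATA box in 11.6% and the CCAAT box in 34.6%. The promoters shown are those of the genes with the highest levels, APP and PICALM, and the lowest, AGER and MME. They are in GRCh38.p14 coordinates, 5′ to 3′ on the gene's strand, with GC boxes in capitals.
APP, chr21:26170721-26171020, minus strand: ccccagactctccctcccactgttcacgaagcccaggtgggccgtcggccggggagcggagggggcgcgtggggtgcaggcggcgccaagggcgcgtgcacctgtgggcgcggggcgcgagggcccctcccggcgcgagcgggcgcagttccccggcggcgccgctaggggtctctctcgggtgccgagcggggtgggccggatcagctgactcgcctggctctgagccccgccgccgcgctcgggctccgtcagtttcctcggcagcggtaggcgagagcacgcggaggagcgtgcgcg
PICALM, chr11:86069035-86069334, minus strand: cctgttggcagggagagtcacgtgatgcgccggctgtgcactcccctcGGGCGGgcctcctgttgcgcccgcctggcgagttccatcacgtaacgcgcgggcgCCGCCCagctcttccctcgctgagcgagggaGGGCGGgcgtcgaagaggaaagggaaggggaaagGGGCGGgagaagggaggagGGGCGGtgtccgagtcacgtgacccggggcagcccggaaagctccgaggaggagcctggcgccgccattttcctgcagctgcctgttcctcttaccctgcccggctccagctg
AGER, chr6:32184204-32184503, minus strand: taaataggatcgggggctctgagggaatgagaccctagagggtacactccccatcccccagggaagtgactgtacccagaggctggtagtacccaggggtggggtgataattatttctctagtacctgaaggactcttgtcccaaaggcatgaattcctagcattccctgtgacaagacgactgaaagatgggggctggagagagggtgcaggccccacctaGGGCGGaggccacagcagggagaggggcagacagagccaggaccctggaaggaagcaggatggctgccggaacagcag
MME, chr3:155080069-155080368, plus strand: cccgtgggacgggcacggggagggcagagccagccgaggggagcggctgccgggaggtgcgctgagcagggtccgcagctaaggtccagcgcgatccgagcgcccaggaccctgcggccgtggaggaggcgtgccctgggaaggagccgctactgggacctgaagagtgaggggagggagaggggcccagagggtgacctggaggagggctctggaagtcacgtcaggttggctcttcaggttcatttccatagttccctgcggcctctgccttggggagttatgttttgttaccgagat
PICALM held 5 GC boxes and AGER held 1, whereas none of the 3 motifs was matched in this window of APP or MME. APP had a GC content of 77.3% and 43 CpG dinucleotides, the most of the 8 promoters. AGER had the fewest, with 57.7% and 4, and MME had 66.3% and 19, against medians of 58.7% and 14 over all promoters. GC boxes were also found in BACE1 (2) and PSEN2 (3), with 0 in NCSTN and 0 in IDE. The TATA and CCAAT letters were matched in 0 of the 8, so no motif overlapped another kind.

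All 9 genes were detected, against 51.3% of all listed genes. Their levels spanned a wide range, from APP among the top genes of the line to MME among the lowest detected. The members are described in the order of the pathway, with positions in hg19, the build named in the submitters' processing notes, and exons of the canonical transcript.

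APP, the precursor itself (chromosome 21, 27252861 to 27543446, minus strand, 18 exons), had a lowest level of 866 CPM, a median of 1145 CPM and a highest of 1298 CPM (mean 1106 ± 142, SD, n = 8). Replicate 7 was the lowest library and replicate 1 the highest, and the values formed a continuous range. On the per-length scale APP reached 309 ± 39.6 RPKM, at percentile 98.5 of the 11591 detected genes with a length. Counts per gene do not separate its splice forms.

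BACE1, the beta-secretase (chromosome 11, 117156402 to 117186972, minus strand, 9 exons), had a lowest level of 40.3 CPM, a median of 51.4 CPM and a highest of 53.3 CPM (mean 48.8 ± 5.15, SD, n = 8). Replicates 8, 2 and 7 were lowest, at 40.3, 43.7 and 44.5 CPM, and did not overlap the other 5 libraries, of which replicate 5 was lowest at 50.2 CPM. Its per-length level of 8.36 ± 0.883 RPKM lay near the middle of the detected genes (percentile 41.2). The antisense gene BACE1-AS lies within BACE1 over 796 bases and had 1.22 ± 0.337 CPM, and RNF214 overlaps its end by 3 bases. Use of strand in the counting is not given in the sources used here, so reads of BACE1 and BACE1-AS cannot be told apart where they overlap.

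Among gamma-secretase genes, NCSTN, the substrate-binding subunit (chromosome 1, 160313063 to 160328742, plus strand, 17 exons), had a lowest level of 108 CPM, a median of 139.8 CPM and a highest of 171 CPM (mean 142 ± 20.3, SD, n = 8). Replicates 2 and 8 were highest, at 171 and 161 CPM, and replicate 7 was lowest. Its first 292 bases overlap COPA on the opposite strand (297 ± 55.6 CPM), so part of its reads is uncertain. PSEN2, a catalytic subunit (chromosome 1, 227058273 to 227083804, plus strand, 13 exons), was far lower, with a lowest level of 9.10 CPM, a median of 10.6 CPM and a highest of 12.2 CPM (mean 10.6 ± 1.14, SD, n = 8). Its libraries formed a continuous range in which the highest was 1.34 times the lowest. On the per-length scale the within-library log2 ratio of NCSTN to PSEN2 was 3.38 ± 0.25, positive in 8 of 8 libraries. Of the other subunits, APH1A reached 116 ± 26.2 RPKM, PSENEN 27.8 ± 10.4 RPKM and APH1B 5.87 ± 0.605 RPKM (SD, n = 8). PSEN2 (4.69 ± 0.509 RPKM) and APH1B were thus the low members of this complex.

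The peptidases IDE and MME lay far apart. IDE, a zinc peptidase found mainly in the cytosol (chromosome 10, 94211441 to 94333852, minus strand, 25 exons), had a lowest level of 43.7 CPM, a median of 78.4 CPM and a highest of 87.0 CPM (mean 70.0 ± 17.9, SD, n = 8). Replicates 8, 2 and 7 had 43.7, 47.9 and 56.2 CPM, below the 75.9 to 87.0 CPM of the other 5 libraries. MME, the membrane zinc peptidase neprilysin (chromosome 3, 154797436 to 154901518, plus strand, 23 exons), had only 126 to 296 counts per library. Its lowest level was 1.53 CPM in replicate 7 (95% exact Poisson interval 1.18 to 1.96), its median 2.24 CPM and its highest 3.28 CPM in replicate 2 (2.77 to 3.85). The interval of replicate 8 (2.79 CPM, 2.31 to 3.34) overlapped that of replicate 6 (2.55 CPM, 2.05 to 3.13), so replicate 8, though second highest, was not above replicate 6 beyond counting error. These intervals cover counting error only. MME stood at 0.402 ± 0.103 RPKM, percentile 1.39 of the detected genes, against 11.9 ± 3.03 RPKM for IDE. The log2 ratio of IDE to MME was 4.56 ± 0.59, positive in 8 of 8 libraries. In a bulk library, fewer cells with a transcript and less of it in each cell cannot be told apart.

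Among the genes of binding and transport, CLU, the chaperone clusterin (chromosome 8, 27454434 to 27472328, minus strand, 9 exons), had the widest relative spread of the 9 on the CPM scale, its highest library being 3.65 times its lowest. It had a lowest level of 60.9 CPM, a median of 77.2 CPM and a highest of 222 CPM (mean 106 ± 60.5, SD, n = 8). Replicates 2 and 8 had 181 and 222 CPM, whereas the other 6 libraries lay between 60.9 and 80.8 CPM. The first was 2.24 times and the second 2.75 times the highest of the others. Endothelial markers summed to 4251 CPM in replicate 2 and 4486 CPM in replicate 8, against 2316 to 3265 CPM in the others. Their part in the result was not tested.

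PICALM, the clathrin assembly protein (chromosome 11, 85668214 to 85780923, minus strand, 20 exons), showed the opposite order. It had a lowest level of 239.6 CPM, a median of 399 CPM and a highest of 420.1 CPM (mean 362 ± 76.9, SD, n = 8). Replicates 2 and 8 had 239.6 and 243 CPM, below the 362 to 420.1 CPM of the other libraries. AGER, the receptor RAGE (chromosome 6, 32148745 to 32152099, minus strand, 11 exons), was low, with 224 to 628 counts per library. Its lowest level was 3.29 CPM (95% exact Poisson interval 2.71 to 3.96), its median 3.92 CPM and its highest 7.43 CPM (6.63 to 8.30). Replicates 2 and 8, at 6.36 and 7.43 CPM, lay above the 3.29 to 4.59 CPM of the other libraries. On the per-length scale AGER reached 3.25 ± 1.04 RPKM, CLU 38.5 ± 22.0 RPKM and PICALM 87.5 ± 18.6 RPKM.

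**Figure D1:**
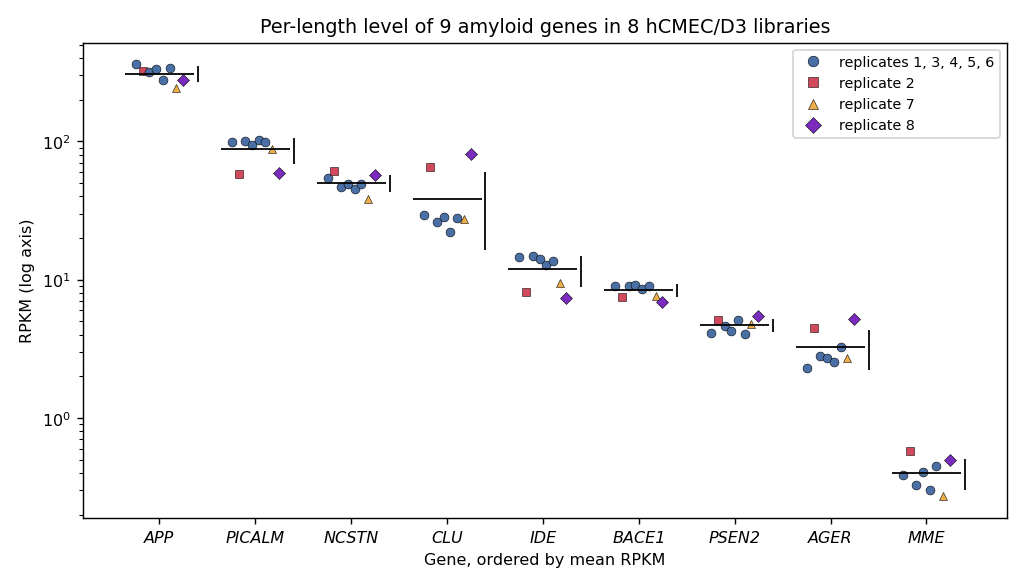
Per-length level (RPKM, log axis) of the 9 genes, ordered by mean, with 1 point per library, a horizontal line at the mean of 8 and a vertical bar of 1 SD either side. The means run from 309 RPKM for APP to 0.402 RPKM for MME, and the points of replicates 2 and 8 stand apart from the others for CLU and PICALM.

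The order of mean RPKM was APP, PICALM, NCSTN, CLU, IDE, BACE1, PSEN2, AGER and MME. Each of the 36 pairs was compared within libraries on log2(RPKM + 0.1) by a two-sided exact permutation test that flips the sign of each library's ratio, with Benjamini-Hochberg adjustment over the 36 pairs. The smallest p this test can give is 0.00781. APP exceeded PICALM by 1.84 ± 0.36 (log2) in 8 of 8 libraries (exact p = 0.00781, adjusted p = 0.00852). PICALM exceeded NCSTN by 0.78 ± 0.50 in 7 of 8 libraries (exact p = 0.0234, adjusted p = 0.0248), with replicate 2 as the exception. NCSTN exceeded CLU by 0.53 ± 0.55 in 6 of 8 libraries (exact p = 0.0469, adjusted p = 0.0469), with replicates 2 and 8 the other way.

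The remaining steps down this order held in 8 of 8 libraries, each with the smallest p the permutation test can give (exact p = 0.00781, adjusted p = 0.00852). CLU exceeded IDE by 1.57 ± 1.05, IDE exceeded BACE1 by 0.46 ± 0.25 and BACE1 exceeded PSEN2 by 0.82 ± 0.29 on the log2 scale. PSEN2 exceeded AGER by 0.56 ± 0.34 and AGER exceeded MME by 2.71 ± 0.26. With the joined length of all annotated exons in place of the canonical transcript, 3 steps changed sign. NCSTN lay below CLU by a log2 ratio of -0.30 (exact permutation test, adjusted p = 0.219), and IDE lay below BACE1 and PSEN2 below AGER in 8 of 8 libraries. On CPM with no length, the mean log2 ratio of CLU to IDE was 0.48 ± 1.05 and CLU was the higher in 3 of 8 libraries (exact permutation test, adjusted p = 0.375). The authors' normalised values gave the same sign as the canonical length for all 36 pairs. Leaving out any 1 of replicates 1, 3, 4, 5, 6 and 7 left CLU's differences from NCSTN and PICALM short of the threshold. Adjusted p-values were then 0.0625 to 0.0938 (exact permutation tests). With 1 library fewer there are fewer sign patterns, so the smallest p the test can give is larger. The mean log2 ratio of NCSTN to CLU was 0.46 to 0.54 in these runs, against 0.53 with all 8 libraries. That of PICALM to CLU was 1.18 to 1.26, against 1.31.

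Variation between libraries was set against the trended dispersion, the spread of other genes of like abundance, with the goodness-of-fit test of edgeR over all 11980 detected genes. CLU was the 1 of the 9 genes above the trend (Benjamini-Hochberg adjusted p = 0.00224), against 4.66% of all genes. Without replicates 2 and 8 its adjusted p in edgeR was 1.000, so the call rested on those libraries. Of the other members AGER had the lowest adjusted p in edgeR's test (0.874). After a correction of each library for length and GC content, MME also passed (edgeR adjusted p = 0.00929), with 6.56% of all genes called.

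The CQN-normalised values of the authors, a log2 scale from conditional quantile normalisation, changed how the members varied. This method adjusts for the length and GC content of genes. BACE1 had an SD of 0.03 on this scale (percentile 0.242 of 11980 genes), and its values ran from 5.65 to 5.73. IDE went from an SD of 0.40 on log2(CPM + 0.5) to 0.06 on the CQN scale, whereas the median gene had 0.27 and 0.16. The libraries of IDE also changed order. Replicates 2 and 8, lowest in CPM with no overlap, had CQN values of 5.98 and 6.01, within the 5.88 to 6.07 of the others.

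CLU kept its spread, with an SD of 0.65 (percentile 98.4) and CQN values of 8.09 and 8.43 in replicates 2 and 8 against 6.61 to 7.01 in the others. MME went the other way from IDE, from an SD of 0.30 to 0.72 (percentile 98.9). Its CQN values were 2.22 and 2.21 in replicates 2 and 8 and 0.45 to 0.94 in the others, with no overlap. The separation of MME in these libraries was thus larger on the CQN scale than on CPM. On CPM replicate 8 was 1.10 times the highest of the others. With 126 to 296 counts per library, MME has CQN values that rest on few reads. Replicates 4 and 7 had the same CQN value of 0.81 at 2.29 and 1.53 CPM. Its percentile is among all detected genes, not among those of like abundance. PICALM stayed lowest in replicates 2 and 8 (8.48 and 8.59 against 8.73 to 8.87), whereas AGER no longer stood apart (3.41 and 3.47 against 3.00 to 3.47).

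**Figure D2:**
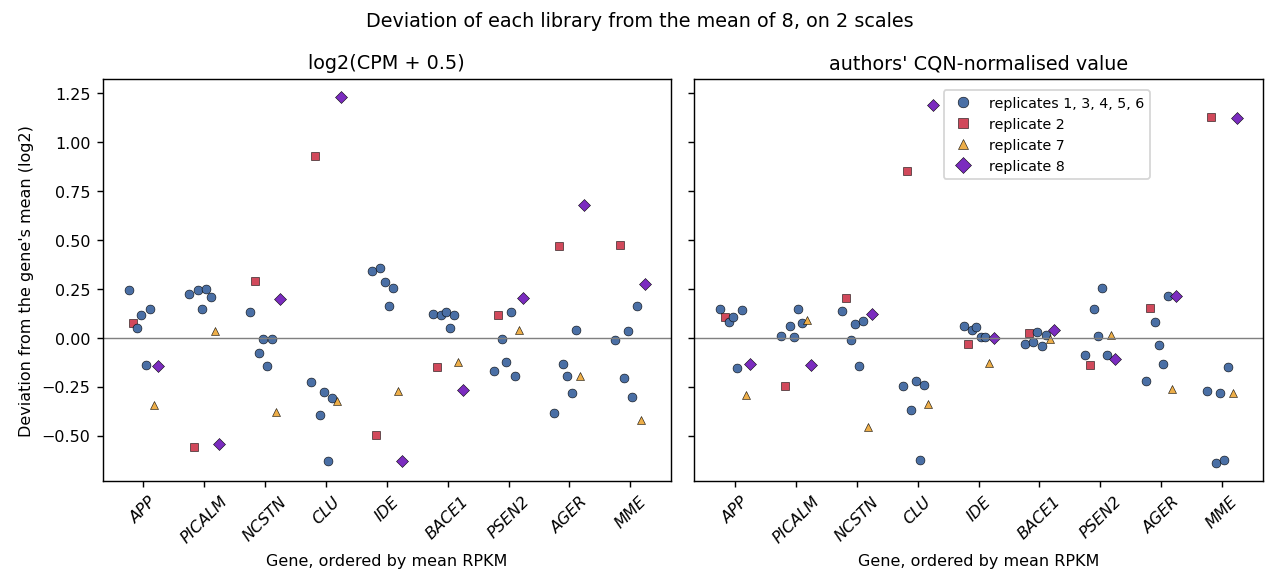
Deviation of each library from the gene's mean of 8 (log2), on log2(CPM + 0.5) at left and on the authors' CQN-normalised values at right, with 1 point per library. IDE and BACE1 narrow to SDs of 0.06 and 0.03 at right, CLU keeps its high replicates 2 and 8, and MME widens to an SD of 0.72.

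Libraries differed by a trend on transcript length, measured as the slope of their deviations from the gene means on log2 length over 11582 detected genes that are not members. The slope was 0.09 to 0.15 (log2 per doubling of length) in replicates 1, 3, 4, 5 and 6, and -0.11, -0.23 and -0.35 in replicates 7, 2 and 8. Each detected gene's log2(CPM + 0.5) was correlated with this slope over the 8 libraries, with a two-sided exact permutation test over all pairings and adjustment over all detected genes. Of these genes, 68.4% passed at an adjusted p under 0.05, 31.6% upward and 36.8% downward. Among the members 3 rose and 3 fell. Neither set of libraries holds the 6 needed for a relation within it.

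IDE rose with the slope, with a Pearson's r of 0.993 (exact permutation p of 7.44e-05, or 0.00164 after adjustment) and a Spearman's rho of 0.976 (exact p of 0.000397, or 0.00631). Without replicates 2 and 8, the libraries farthest from the median slope, its r was 0.990. BACE1 rose as well, with a Pearson's r of 0.990 (exact permutation p of 0.000546, or 0.00255 after adjustment) and a Spearman's rho of 0.786 (exact p of 0.0279, or 0.0608), and r was 0.994 without those libraries. PICALM rose with a Pearson's r of 0.939 (exact permutation p of 0.00494, or 0.00996 after adjustment) and a Spearman's rho of 0.738 (exact p of 0.0458, or 0.0837), and r was 0.821 without them. With replicates 2 and 8 left out, replicate 7 was the only library with a slope below 0 (-0.11, against 0.09 to 0.15). Each r without replicates 2 and 8 therefore rests largely on replicate 7. IDE, BACE1 and PICALM have canonical transcripts of 5894, 5835 and 4134 bases.

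CLU, AGER and PSEN2, with canonical transcripts of 2749, 1420 and 2249 bases, fell with the slope. CLU had a Pearson's r of -0.879 (exact permutation p of 0.0164, or 0.0268 after adjustment) and a Spearman's rho of -0.476 (exact p of 0.243, or 0.308). Its r was 0.089 without replicates 2 and 8, so the relation rests on them. AGER did likewise, with a Pearson's r of -0.843 (exact permutation p of 0.0166, or 0.0271 after adjustment) and a Spearman's rho of -0.476 (exact p of 0.243, or 0.308), and an r of 0.080 without them. PSEN2 had a Pearson's r of -0.781 (exact permutation p of 0.0290, or 0.0433 after adjustment) and a Spearman's rho of -0.762 (exact p of 0.0368, or 0.0720), and an r of -0.529 without them. APP, NCSTN and MME did not pass (r of 0.522, -0.340 and -0.446, adjusted p of 0.226, 0.455 and 0.313, exact permutation test). Without replicates 2 and 8 their r was 0.908, 0.910 and 0.757, so that of NCSTN and MME changed sign. Replicate 7 was the lowest library for each of these genes and weighs most in these values. MME has a transcript of 5656 bases, close to those of IDE and BACE1, yet its highest libraries, replicates 2 and 8, were their lowest.

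**Figure D3:**
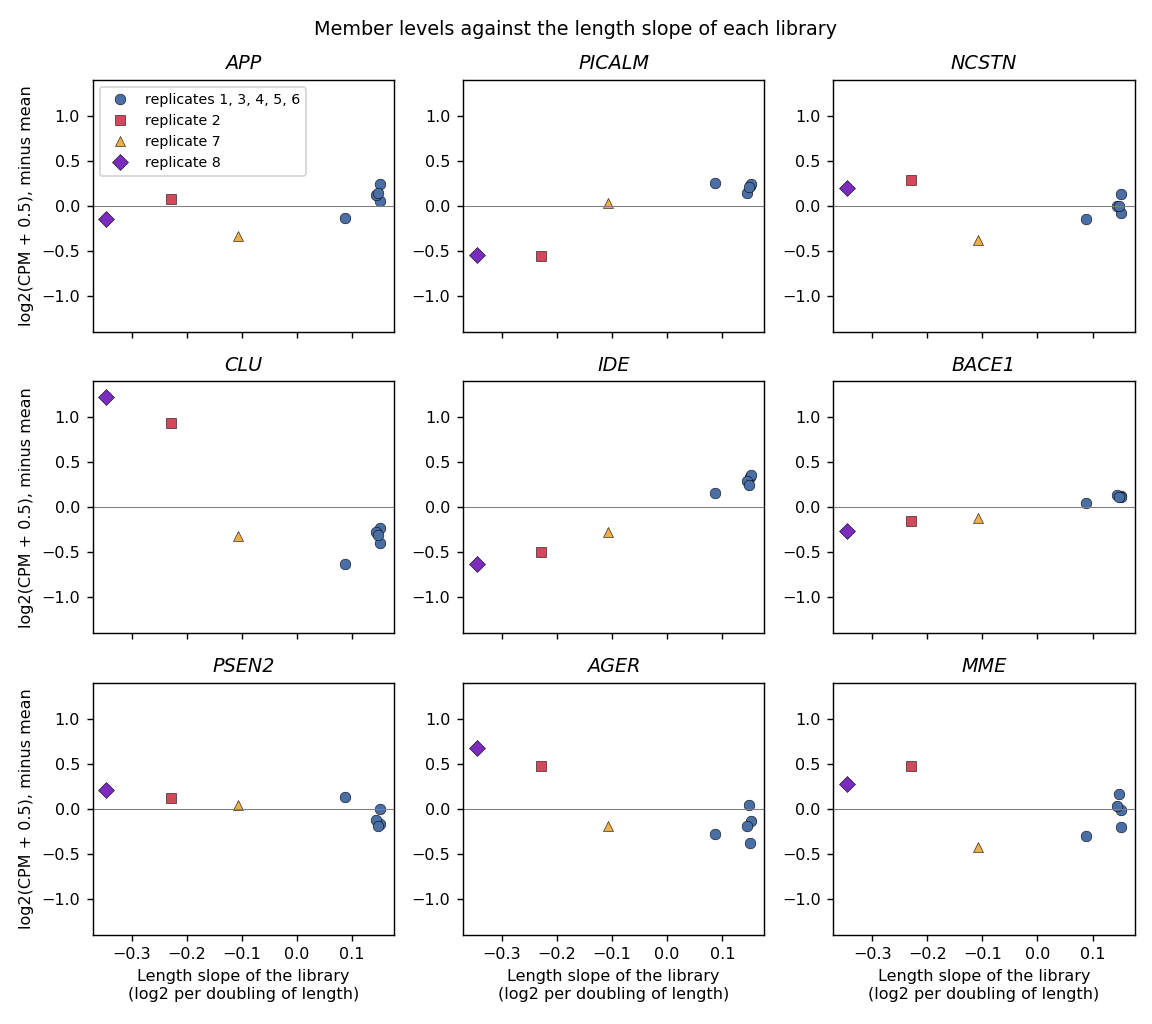
Level of each gene (log2(CPM + 0.5) minus its mean) against the length slope of the library (log2 per doubling of transcript length), with 1 point per library. IDE and BACE1 climb along the slope (r of 0.993 and 0.990), whereas CLU and AGER are high in replicates 2 and 8 and have an r of 0.089 and 0.080 without them.

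On the CQN scale 0 of the 9 members passed the same exact permutation test, against 33.6% of all genes. An unadjusted p under 0.05 was found for 3 of the 9 and for 5643 of 11980 genes. For those 3 genes r was 0.713 (exact p of 0.0402, or 0.0906 after adjustment) in PICALM, -0.866 (exact p of 0.0196, or 0.0560 after adjustment) in CLU and -0.871 (exact p of 0.0197, or 0.0561 after adjustment) in MME. A pattern chosen after the values were seen was then counted over all genes, namely that replicates 2 and 8 both lay above, or both below, all other libraries. On CPM, NCSTN, CLU, MME and AGER lay above and BACE1, IDE and PICALM below, which is 4 and 3 of the 9, against 33.7% and 29.8% of all genes. On the CQN scale CLU and MME lay above and PSEN2 and PICALM below, against 26.5% and 22.2% of all genes. Such a ranking was therefore common in these libraries, and for MME on CPM it was within counting error in replicate 8.

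The other genes of the pathway were read from 9 lists by role, 77 genes in all, of which 65 were detected. Of the detected genes 20 rose and 24 fell with the length slope (exact permutation test), against 31.6% and 36.8% of all genes, and 3 varied above the trend (edgeR), against 4.66% of all genes. These shares are near those of all genes. The median level of the detected pathway genes was 24.0 RPKM, against 11.4 RPKM for all detected genes with a length and 11.9 RPKM for the 9 members.

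APLP2, a paralog of APP, reached 279 ± 26.3 RPKM (SD, n = 8), with a log2 ratio to APP of -0.14 ± 0.12 that was positive in 2 of 8 libraries. APLP1, a mainly neuronal paralog, had 1.62 ± 0.318 RPKM. All 3 alpha-secretase genes were detected, with 130.0 ± 42.3 RPKM for ADAM9, 13.3 ± 4.15 RPKM for ADAM17 and 12.8 ± 5.14 RPKM for ADAM10. The canonical transcripts of ADAM10 and ADAM17 have 11158 and 4391 bases. Without division by length ADAM10 was the higher of the pair (143 against 58.2 CPM), as it was on the CQN scale (7.39 against 6.31). ADAM10, the main constitutive alpha-secretase, varied above the trend (edgeR adjusted p = 0.00881) and ranged from 50.3 CPM in replicate 8 to 191 CPM in replicate 6. All 3 rose with the length slope. The log2 ratio of ADAM10 to BACE1 was 0.48 ± 0.58 and positive in 6 of 8 libraries on RPKM, and the difference was 1.69 ± 0.54 on the authors' CQN scale. BACE2, the homologue of BACE1, reached 13.6 ± 2.56 RPKM and exceeded BACE1 in 8 of 8 libraries, by 0.68 ± 0.37 (log2, RPKM).

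Of 16 genes for adaptors and traffic of APP, 15 were detected, led on RPKM by RTN4 (178 ± 10.4 RPKM), RTN3 (55.4 ± 3.97 RPKM) and TMED10 (49.3 ± 4.96 RPKM). On the CQN scale ITM2B (9.54) and SORT1 (8.31) lay above RTN3 (8.25) and TMED10 (7.92), so the order depends on the scale. SORL1, a receptor known for sorting APP away from the secretases, was not detected, at 0.231 ± 0.0946 CPM. Among 15 other peptide-degrading enzymes 11 were detected. The highest were the lysosomal protease CTSB (231 ± 37.6 RPKM), the endothelin-converting enzyme ECE1 (158 ± 12.3 RPKM) and the lysosomal protease CTSD (151 ± 54.1 RPKM). ECE1 exceeded its relative MME by a log2 ratio of 8.32 ± 0.24 in 8 of 8 libraries. MMEL1, MMP9 and A2M were not detected (0.133, 0.141 and 0.764 CPM), and PLG had 0 counts in every library. ACE varied above the trend (edgeR adjusted p = 0.0412), from 1.27 CPM in replicate 5 to 5.44 CPM in replicate 8. Its counts were low, with 1838 over the 8 libraries together, and no counting interval is given for it.

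Of 13 receptors and pumps of the barrier 12 were detected. The highest was the caveolar protein CAV1 (315 ± 19.8 RPKM), and the Fc receptor FCGRT reached 54.1 ± 27.4 RPKM. FCGRT varied above the trend (edgeR adjusted p = 0.0149), with 133 and 161 CPM in replicates 2 and 8 and at most 68.4 CPM elsewhere. LRP2 was not detected, at 0.143 ± 0.0658 CPM. LRP1, the receptor known for carrying amyloid-beta out of the brain, had 0.445 ± 0.125 RPKM, and the efflux pumps ABCB1 and ABCG2 had 20.8 ± 5.47 RPKM and 6.79 ± 1.26 RPKM. ADAM10, ACE and FCGRT as genes above the trend, and LRP1, ABCB1 and ABCG2, were chosen for mention after their values were seen.

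The clathrin list held 17 genes, of which 16 were detected, led on RPKM by CLTA (275 ± 75.1 RPKM), AP2M1 (250.1 ± 38.9 RPKM) and AP2S1 (181 ± 67.4 RPKM). PICALM, at 87.5 RPKM, lay next below these, whereas its neuronal homologue SNAP91 was not detected (0.0433 CPM). On the CQN scale CLTC (9.13), AP2B1 (9.07) and PICALM (8.73) lay above AP2S1 (8.04). Of the RAGE ligands, HMGB1 reached 163 ± 11.2 RPKM, while S100A9, S100P, S100B and S100A8 were not detected, with means between 0.00655 and 0.102 CPM, and S100A12 had 0 counts in every library. DIAPH1, which binds the cytoplasmic tail of RAGE, had 59.6 ± 5.47 RPKM.

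**Figure D4:**
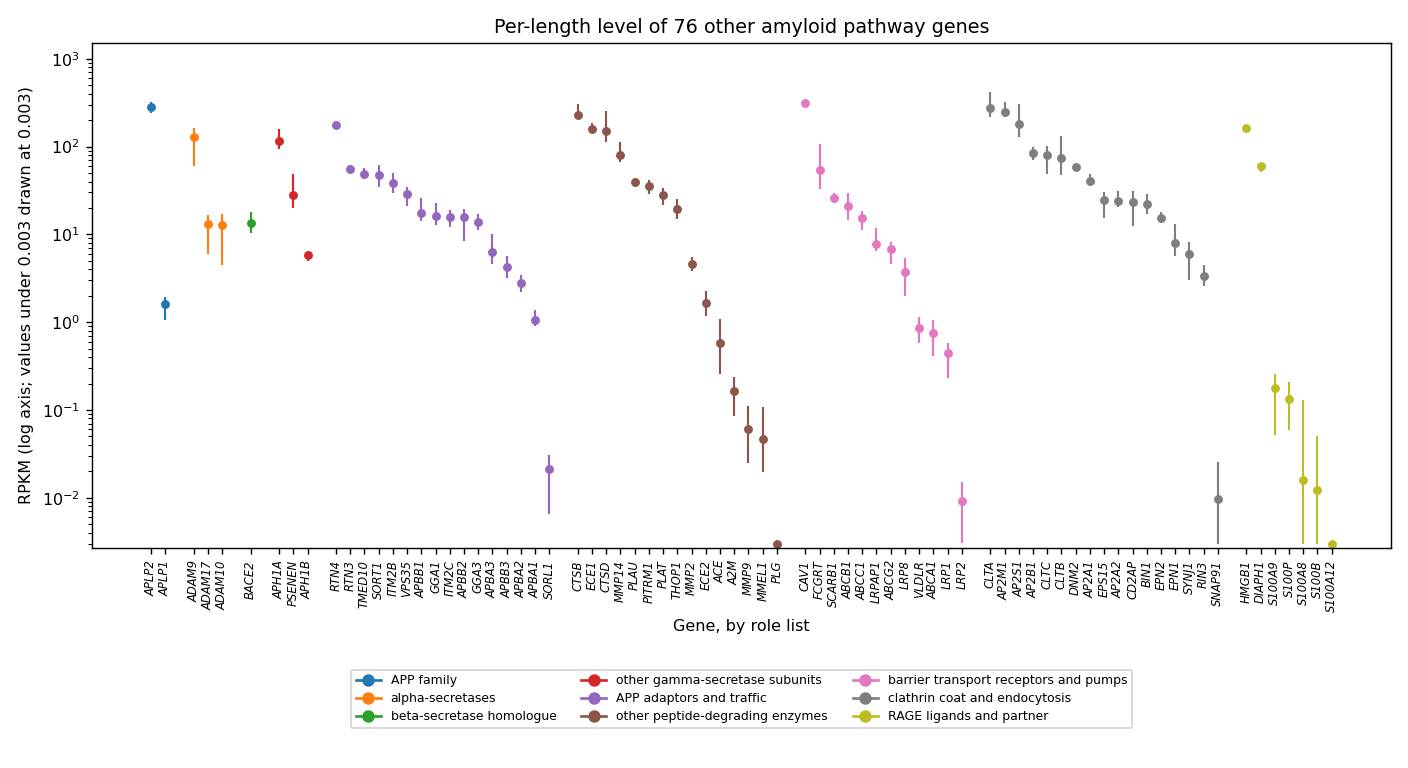
Per-length level (RPKM, log axis) of 76 of the 77 other pathway genes by role list, with a point at the mean of 8 libraries and a line from the lowest to the highest library; values under 0.003 RPKM are drawn at 0.003. CAV1 (315 RPKM), APLP2 (279) and CLTA (275) have the highest means, and the 5 S100 genes lie under 1 RPKM.

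Likeness of pattern was described by Pearson's r over the 8 libraries on the CQN scale, among all detected genes. CLU was most like UBXN6 and CCDC25 (r of 0.996 and 0.995). CCDC25 lies on the same chromosome (27590833 to 27630170), 119 kb from CLU with 3 listed genes between them. REEP3 and RCC1, named below, also share a chromosome with their members IDE and PSEN2, at 28827 and 198193 kb. Without replicate 8, CCDC25 was not among the genes named as nearest to CLU, and an effect of position was not tested. MME was most like KIAA0141 and APOBEC3F (r of 0.996 and 0.996), and PICALM most like CPA4 and PPP1R14A (r of 0.993 and 0.983). For IDE the nearest were REEP3 and SLC10A7 (r of 0.988 and 0.973), for NCSTN ATF6B and RAB3D (r of 0.987 and 0.983), and for PSEN2 RCC1 and WDR36 (r of 0.981 and 0.969). For APP they were COG3 and EPB41 (r of 0.970 and 0.969), for AGER COL9A3 and SLC23A3 (r of 0.956 and 0.951), and for BACE1 WDSUB1 and C16orf79 (r of 0.953 and 0.950). The points share libraries and depth. On log2(CPM + 0.5) 0 of these 18 genes were among the nearest, and without replicate 8 there were 7. Among the members themselves, CLU and MME had an r of 0.979 on the CQN scale, and PICALM ran opposite to both (r of -0.912 and -0.925). On this scale replicates 2 and 8 stood above all others in CLU and MME and below them in PICALM. Such rankings held for 26.5% and 22.2% of all genes, and r without those libraries was not computed. On log2(CPM + 0.5) the r of CLU with MME was 0.782.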

How the data were processed

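RNA was sequenced from 8 replicates of hCMEC/D3 as polyadenylated RNA libraries made with a TruSeq kit, per the labels' protocols. The deposited table gives unnormalised counts per gene, and CASAVA 1.9, TopHat2 2.0.6, HTSeq and hg19 are named in the submitters' processing notes. The authors also deposited CQN-normalised values, named so per the file headers, whose log2 scale was judged from the values. CQN parameters and use of strand in counting are not given in the sources used here. Gene starts count from 0 in the table and are printed counting from 1. The table held 0 other columns of per-sample values.

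CPM used TMM factors (edgeR 4.0.16, R 4.3.3). Lengths and GC content came from canonical transcripts of GENCODE 44 lifted to GRCh37, found for 96.8% of detected genes. Variation was tested with edgeR's goodness-of-fit test at an adjusted p under 0.05. Correlations and within-library ratios were tested by exact permutation, enumerated in NumPy 2.4.6. On simulated counts for 11980 genes, 175 of 200 genes raised 4-fold in 1 library were recovered, and 0 were called with none raised. These counts were drawn from the fitted dispersion trend, with no length trend shared between genes. They therefore do not show how often the test errs under the length trend of the real libraries. Alternatives changed library scaling (with DESeq2 1.42.0), filters, the trend, pseudocounts, lengths and replicates.

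The members, the role lists and the rule for named genes were chosen with earlier results of these data known. The rule named the members, the 3 highest and the undetected genes of each list, and the 2 genes nearest to each member in pattern. The values of 1 gene of the role lists are not reported here. Each library held at least 34694272 read pairs, so counting error was small except for undetected genes and detected genes with low counts. The latter include MME, AGER, ACE and APLP1.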

Additional observations from a re-analysis of the deposited data

How the results depend on the processing

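All 9 members stayed detected under the 3 other filters, with total counts in place of TMM sizes and without any 1 library. Their mean levels moved by a factor of 0.848 to 1.06 over 90 alternative values. The 558 genes above the trend became 2811 with DESeq2's fitted trend and 335 without replicates 2 and 8, an alternative chosen after seeing the data. Leaving out 1 library gave 381 to 491. Among the members 1 was called, 2 with the length and GC trend removed and 0 without replicates 2 and 8 (edgeR, 0 at an unadjusted p under 0.05). The adjusted p of CLU (edgeR, or its test on DESeq2's scaling or trend) ranged from 2.14e-11 to 0.0187 in the other 15 alternatives. The 8196 genes that followed the length slope became 4179 with Spearman's rho and 4024 on CQN values, and the 6 members became 1 and 0 (exact permutation, 3 of 9 members and 5643 of 11980 genes at an unadjusted p under 0.05 on CQN values). On CQN values r turned to -0.54 for BACE1 and 0.45 for PSEN2. With joined exon lengths the log2 ratios of BACE1 to IDE, PSEN2 to AGER and NCSTN to CLU turned to 0.46, -1.60 and -0.30. Leaving out 1 library left 34 to 36 pairs called, and CPM with no length left 35. Of the 18 nearest genes, 0 were shared on log2(CPM + 0.5) and 7 without replicate 8. The cause was not tested for any of these. No paired comparison of conditions was possible because there is 1 group.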
